A study of Mus musculus with 8 samples.

Results

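The genes described here are 40 ribosome biogenesis factors, the proteins that transcribe, cut, modify and fold ribosomal RNA (rRNA) in the nucleolus before it becomes part of a working ribosome. They were chosen by name from general knowledge of the pathway, and all 40 were found among the 16119 genes of the deposited count table and passed the filter on low counts. The cells were DC-restricted progenitors (CDPs) of C57BL/6 mice (C57BL/6J in the methods), a bone marrow (BM) population that gives rise to dendritic cells. About 50000 CDPs per sample were sorted as Lin-, c-Kit int, Sca1 lo, CD115+ and Flt3+, and total RNA was amplified and sequenced in 8 libraries. Diet-induced obese males (genotype label DIO) had a high-fat diet (HFD) with 60 kcal% fat in 4 of them, and the other 4 came from control males (DIO-Control, matched for age) on chow (CF) with 10 kcal% fat. The labels give 16 weeks on the high-fat diet, and the study's results describe feeding for up to 16 weeks. The methods give the same figure as the age of the purchased mice, so the age at sampling is not settled by these sources. The labels name no further allele, transgene or drug, and whether a library holds cells of more than 1 mouse is not stated. The study asked what a fatty diet does to the growth and differentiation of these progenitors. The comparison below is that of HFD with CF for each factor.

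Ribosomes are built in the nucleolus around rRNA that RNA polymerase I transcribes as a single long precursor. A large assembly called the small subunit processome, guided by small nucleolar RNAs (snoRNAs), folds and cuts the part that becomes the small subunit, and other factors assemble the large subunit around the rest. Dividing cells need many ribosomes, and the transcription factor Myc is known to drive many genes of this pathway, so the factors are commonly read beside proliferation in progenitors of the blood.

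The libraries held between 28203651 and 38969160 counts in HFD and between 32575696 and 48409689 in CF, and the factors received from 97 counts (Taf1a) to 13284 counts (Ncl) per library. Levels are given as counts per 1000000 counts of a library (CPM) after TMM scaling, which adjusts for the composition of each library. Flt3 and Csf1r, the genes of the sort markers Flt3 and CD115, were at 88.8 to 378 CPM and 79.4 to 133 CPM, Kit at 34.2 to 53.6 CPM and Ly6a (Sca1) at 1.37 to 3.25 CPM, so RNA of every gate marker was detected in every library. HFD replicate 1 stood apart from the rest. Its 12 neutrophil markers (S100a8, S100a9, Ngp, Camp, Ltf, Lcn2, Retnlg, Mmp8, Cxcr2, Ly6g, Cd177 and Chil3) summed to 20227 CPM, against 3567, 1257 and 940 CPM in HFD replicates 2 to 4 and 1917, 6488, 5983 and 5861 CPM in CF replicates 1 to 4. Its Flt3 was the lowest of all 8 libraries at 88.8 CPM. In bulk RNA, a change in the mix of cells and a change of RNA per cell cannot be told apart.

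The levels of the factors in HFD CDPs lay close to those in CF CDPs, and none of the differences passed the test. Of the 40 factors, 0 were called (edgeR, adjusted p from 0.73 to 1.0), where 0.423% of all genes tested were called, all of them lower in HFD. At an unadjusted p below 0.05 the number of factors was also 0, while 8.56% of all genes (3.22% on the higher side) and 5.38% of protein-coding genes passed it, or 4.56% with protein-coding genes fitted alone, and DESeq2, limma voom and a linear model for each gene called 0 as well. By unadjusted p below 0.05 the linear model passed 2 factors, both higher (4.09% of all genes), and library size alone passed 3, all higher (9.92% of all genes). Without HFD replicate 1 it was 2 higher and 1 lower, beside 4.79% and 9.76% of all genes, so these counts were near or below the background. The log2 fold changes (log2FC) of HFD over CF ran from -0.18 for Polr1a to 0.23 for Utp15, with standard errors (SE) from 0.083 to 0.26. The 95% interval of the fold change lay inside 1.5-fold either way for 38 of the 40 factors, against 49.3% of protein-coding genes and 39.1% of all genes tested. The exceptions were Taf1a and Taf1c, which are among the lowest expressed, and the intervals of all 40 lay inside 2-fold.

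**Figure D1:**
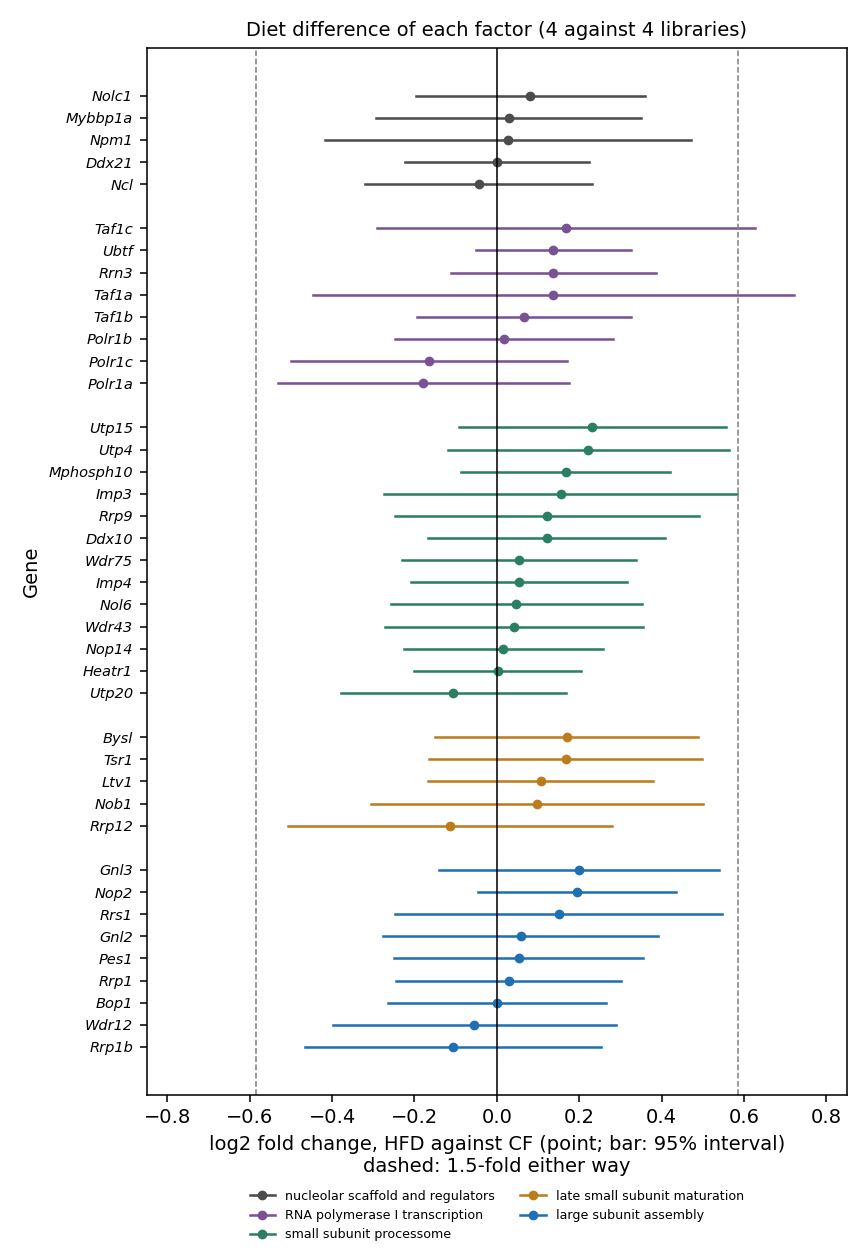
The log2 fold change of each factor in HFD against CF is plotted as a point with its 95% interval from edgeR (4 libraries per diet), grouped and coloured by role, with dashed lines at 1.5-fold either way. Every interval crosses 0, and only those of Taf1a and Taf1c reach past a dashed line.

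The values leaned to the HFD side without passing the test. Of the 40 factors, 32 had a log2 fold change above 0, or 80.0%, beside 64.6% of protein-coding genes and 59.7% of all genes tested. Their median log2FC was 0.056, next to 0.055 over all genes and 0.070 over protein-coding genes. This lean rested on single libraries and on the scaling, since 14 of 40 were above 0 without HFD replicate 4, 20 without HFD replicate 3, 25 with protein-coding genes alone and 39 with library size alone. Without HFD replicate 1 the number was 32 and the median 0.12, beside 0.029 over all genes, a distance of 0.087 that was the largest of all settings. Library size alone moved the median of all genes from 0.055 to 0.25 and that of the factors to 0.26, a distance of 0.011. Of the 40 factors, 1 (Ubtf) had every HFD library above every CF library and 0 had every HFD library below, where 2.58% of all genes tested lay wholly above and 3.58% wholly below.

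Levels per length placed Npm1 far above the rest. Levels were divided by the length of the principal transcript in kilobases (kb), which allows genes to be set beside each other. Npm1 had 143 CPM per kb over all 8 libraries, followed by Ncl with 36.8, Ubtf with 21.5, Rrp1 with 19.8, Nolc1 with 19.4 and Ddx21 with 16.8 CPM per kb. The lowest levels were those of Taf1c with 1.54, Rrp12 with 2.31 and Taf1a with 2.60 CPM per kb. The annotated transcripts of Ncl (8202 bases) and Imp4 (5836 bases) are long for their coding sequences. Per kb of coding sequence Ncl reached 142 and Npm1 267 CPM, and Imp4 moved from rank 32 to rank 6 of 40. Over the 8 libraries, the range of Npm1 lay wholly above that of Ncl and the range of Ncl above that of Ubtf. From Ubtf down, every factor shared part of its range with the next in the order. Such an overlap does not show equal levels, since all factors were measured in the same libraries. Ddx21, for example, was above Gnl3, the next in the order, in each of the 8 libraries.

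**Figure D2:**
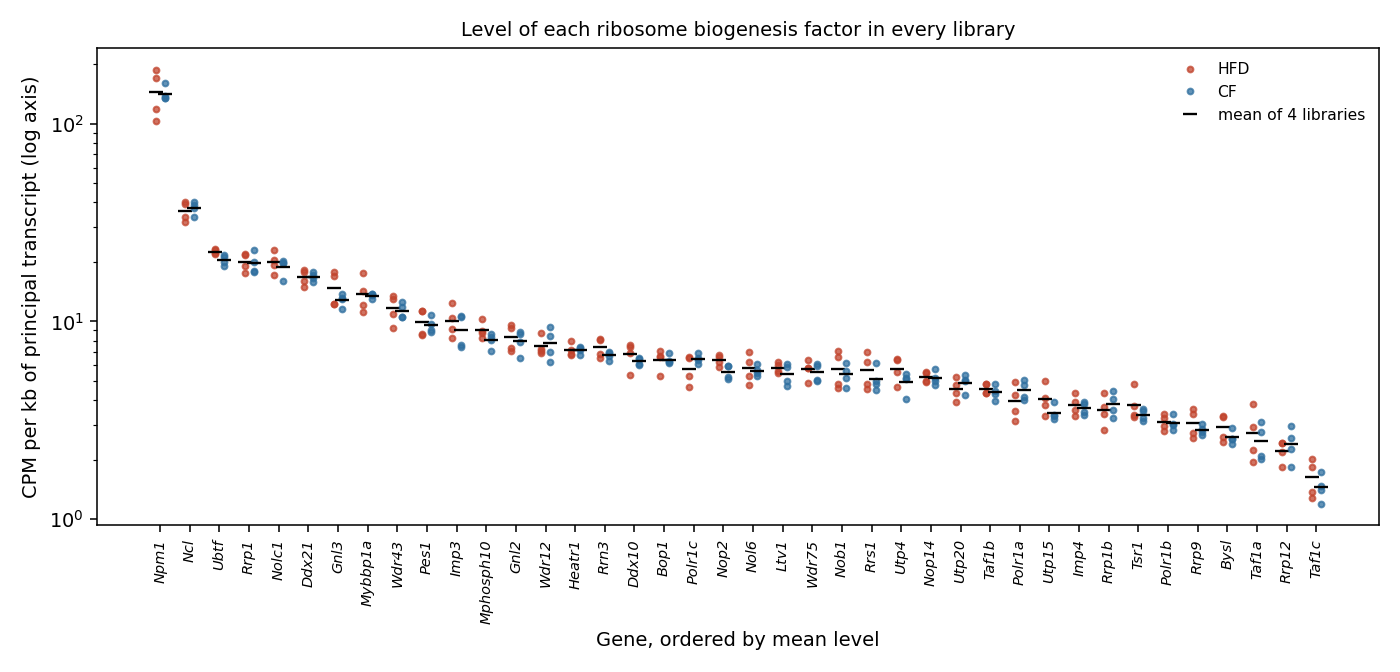
Each point is the level of a factor in a library (HFD red, CF blue), in CPM per kb of principal transcript on a log axis, with short bars at the mean of 4 libraries and genes ordered by their mean. The level falls from 143 for Npm1 to 1.54 for Taf1c, and the points of both diets overlap for each factor except Ubtf.

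Among the 5 nucleolar scaffold proteins and regulators (Ncl, Npm1, Nolc1, Ddx21 and Mybbp1a), 3 log2 fold changes were above 0, 2 were below and 0 passed the test, with a median of 0.027. Npm1 (ENSMUSG00000057113, chromosome 11 of GRCm38 from 33152287 to 33163206, minus strand), a histone chaperone that makes up much of the nucleolus, reached 169, 194, 277 and 306 CPM in HFD replicates 1 to 4 and 221, 225, 263 and 219 CPM in CF replicates 1 to 4. Both the lowest and the highest values of Npm1 were thus found in HFD, and all 4 CF libraries lay between them. Its log2FC was 0.027 (SE 0.20; edgeR, adjusted p = 0.99). Ncl, or nucleolin, which binds rRNA precursors, had 261, 278, 329 and 322 CPM in HFD and 307, 276, 316 and 328 CPM in CF, with a log2FC of -0.044 (SE 0.12; adjusted p = 0.97). Nolc1, a partner of snoRNA particles, Ddx21, an RNA helicase, and Mybbp1a, a nucleolar protein that binds Myb, had log2 fold changes of 0.081, -0.00031 and 0.028. The level of Ddx21 was 79.2 CPM in HFD and 79.2 CPM in CF, with standard deviations of 7.36 and 3.89.

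Of the 8 factors of RNA polymerase I transcription, 6 had a log2 fold change above 0, 2 below and 0 passed the test, with a median of 0.10. Ubtf (ENSMUSG00000020923, chromosome 11 from 102304560 to 102319742, minus strand), which coats active rRNA genes and recruits the polymerase, had 64.0, 61.2, 60.2 and 63.2 CPM in HFD replicates 1 to 4 and 55.2, 59.8, 58.3 and 52.8 CPM in CF replicates 1 to 4. The groups did not overlap, with 59.8 CPM in the highest CF library and 60.2 CPM in the lowest HFD library. The log2FC was 0.14 (SE 0.083; edgeR, adjusted p = 0.77), a 1.10-fold difference with a 95% interval from 0.965 to 1.25. Ubtf was the only factor of the list with this order after TMM scaling. With library size alone Ltv1 and Nop2 showed it too, 3 of 40 factors beside 7.04% of all genes. Rrn3, the factor that makes the polymerase ready to start, had 23.4, 24.4, 29.3 and 29.0 CPM in HFD and 25.2, 24.8, 23.9 and 22.6 CPM in CF. HFD replicates 3 and 4 lay above every CF library and replicates 1 and 2 among them, with a log2FC of 0.14 (SE 0.11; adjusted p = 0.83).

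Of the 3 subunits of the polymerase itself, 2 had a log2FC below 0. Polr1a (ENSMUSG00000049553, chromosome 6 from 71909053 to 71984935, plus strand) encodes the largest subunit and had the lowest log2 fold change of the list, -0.18 (SE 0.16; edgeR, adjusted p = 0.85). It had 45.6, 32.6, 38.9 and 28.9 CPM in HFD and 38.2, 36.8, 46.6 and 43.7 CPM in CF, so that HFD replicate 4 was the lowest of 8 and HFD replicate 1 second only to CF replicate 3. Polr1b, the second largest subunit, stood at 0.017, and Polr1c, a subunit shared with RNA polymerase III, at -0.17. With library size alone Polr1a moved to -0.0011 and Polr1c to 0.018, so no direction can be read from either. Per kb of transcript, the 3 subunits were at 4.22 (Polr1a), 3.08 (Polr1b) and 6.11 CPM (Polr1c). Taf1a, Taf1b and Taf1c, which form the selectivity factor at the promoter of rRNA genes together with Tbp, had log2 fold changes of 0.14, 0.066 and 0.17. Taf1a had the largest SE of the list, with 2.86 to 5.61 CPM in HFD and 2.96 to 4.55 CPM in CF, and its interval (0.734- to 1.65-fold) was the widest of the 40.

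The small subunit processome was represented by 13 factors, of which 12 had a log2 fold change above 0 and 1 (Utp20, -0.11) below, with a median of 0.054 and 0 past the test. Utp15 and Utp4 belong to the UTP-A complex, which binds the rRNA precursor first, as do Heatr1, Wdr43 and Wdr75. Utp15 (ENSMUSG00000041747, chromosome 13 from 98246845 to 98263041, minus strand) had the highest log2 fold change of the list, 0.23 (SE 0.14; edgeR, adjusted p = 0.77), with 13.7, 15.6, 16.9 and 20.5 CPM in HFD and 16.0, 13.7, 13.9 and 13.2 CPM in CF. HFD replicates 3 and 4 were above every CF library, and HFD replicate 1 lay within the CF range. Its log2 fold change was 0.078 without HFD replicate 4 and 0.44 with library size alone. Utp4 had 12.4, 10.4, 14.5 and 14.3 CPM in HFD and 11.6, 9.03, 11.5 and 12.1 CPM in CF, with a log2FC of 0.22 (SE 0.15; adjusted p = 0.81). Its lowest value, 9.03 CPM in CF replicate 2, stood below the other 7 libraries, which began at 10.4 CPM. Wdr43, the highest of the 13 per length at 11.5 CPM per kb, had 31.8, 37.8, 46.6 and 44.97 CPM in HFD and 36.5, 36.2, 40.6 and 43.3 CPM in CF, and its log2FC of 0.041 was smaller than its standard error of 0.14.

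Heatr1 and Wdr75 were as close, at 0.0016 and 0.054. Heatr1 had the tightest interval of the processome, from 0.869- to 1.15-fold. Mphosph10, Imp3 and Imp4 form a small complex that helps the U3 snoRNA to pair with the precursor. Mphosph10 had 20.2, 19.6, 18.5 and 23.0 CPM in HFD and 16.0, 18.2, 18.8 and 19.4 CPM in CF, and 3 of the 4 HFD libraries were above the highest CF library. Its log2FC was 0.17 (SE 0.11; edgeR, adjusted p = 0.80), that of Imp3 0.16 and that of Imp4 0.053. The remaining factors were Nol6 (0.048) and Nop14 (0.015), which build the processome, Rrp9 (0.12), a protein of the U3 particle, and the helicase Ddx10 (0.12).

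Late steps of small subunit maturation, in which the pre-ribosome is exported and its rRNA trimmed, were covered by 5 factors. Of these 4 had a log2 fold change above 0 and 1 (Rrp12, an export factor, -0.11) below, with a median of 0.11 and 0 past the test. Bysl (ENSMUSG00000023988), which is needed for the release of the small subunit, had 12.7, 9.50, 10.0 and 12.7 CPM in HFD and 9.25, 11.1, 9.83 and 9.77 CPM in CF. Its HFD values fell into a pair above and a pair within the CF range, with a log2FC of 0.17 (SE 0.14; edgeR, adjusted p = 0.84). Tsr1, which resembles a GTPase and holds the pre-small subunit, had 11.3, 11.1, 12.6 and 16.3 CPM in HFD and 12.2, 10.6, 11.1 and 11.9 CPM in CF. Its log2FC of 0.17 (SE 0.15; adjusted p = 0.85) rested on HFD replicate 4 alone and became -0.0086 without that library. Ltv1, an export adaptor and the highest of the 5 per length (5.63 CPM per kb), had 14.3, 12.9, 12.6 and 13.8 CPM in HFD and 10.9, 13.9, 13.5 and 11.5 CPM in CF, with a log2FC of 0.11. Nob1, the nuclease that makes the final cut of small subunit rRNA, stood at 0.097 with a standard error of 0.18.

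The large subunit was represented by 9 factors, with 7 log2 fold changes above 0, 2 below, a median of 0.053 and 0 past the test. Nop2 (ENSMUSG00000038279, chromosome 6 from 125131909 to 125144753, plus strand), an rRNA methyltransferase long used as a proliferation antigen, had the lowest unadjusted p of the 40 factors, 0.10. It had 16.2, 15.3, 17.1 and 17.5 CPM in HFD and 15.5, 15.5, 13.6 and 13.2 CPM in CF, so that only HFD replicate 2 lay within the CF range. The log2FC was 0.19 (SE 0.11; edgeR, adjusted p = 0.73), or 1.14-fold with an interval from 0.968 to 1.35. Gnl3 (nucleostemin), a nucleolar GTPase known from stem cells, had 23.7, 23.9, 33.0 and 34.5 CPM in HFD and 26.8, 22.6, 25.3 and 25.5 CPM in CF, with a log2FC of 0.20 (SE 0.15; adjusted p = 0.82). HFD replicates 3 and 4 were the 2 highest of the 8 libraries, and replicates 1 and 2 lay within the CF range. Without HFD replicate 4 the log2 fold change of Gnl3 was 0.062. Its relative Gnl2 stood at 0.058.

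Pes1, Bop1 and Wdr12 form the PeBoW complex, which is needed for the cutting of large subunit rRNA. Their log2 fold changes were 0.053, 0.00055 and -0.055, with standard errors of 0.13, 0.12 and 0.15, and their levels per kb were 9.77, 6.40 and 7.64 CPM. Rrp1, the highest of the 9 per length, had 34.9, 37.9, 42.8 and 43.4 CPM in HFD and 35.2, 45.4, 35.6 and 39.7 CPM in CF, with a log2FC of 0.028 (SE 0.12; edgeR, adjusted p = 0.98). The CF libraries of Rrp1 covered nearly the whole HFD range. Its paralog Rrp1b stood at -0.11 and Rrs1, which helps to load the 5S particle onto the large subunit, at 0.15.

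Within HFD, most of the factors were high in the same libraries and low in the same libraries. Each library was compared with the mean log2 CPM of its own diet. In HFD replicates 1 to 4, 7, 5, 34 and 34 of the 40 factors were above that mean, where 49.6%, 48.6%, 49.95% and 51.2% of all genes tested were. In CF replicates 1 to 4 the numbers were 18, 17, 22 and 24 of 40. The summed level of the 40 factors was 1253, 1309, 1591 and 1595 CPM in HFD and 1393, 1360, 1463 and 1439 CPM in CF, so that the HFD libraries lay on both sides of all CF libraries. HFD replicate 4 held the highest of the 8 values for 15 factors and HFD replicate 3 for 13, while HFD replicate 1 held the lowest for 14. Libraries share their depth and composition over all factors, so the 40 factors are not 40 independent observations.

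**Figure D3:**
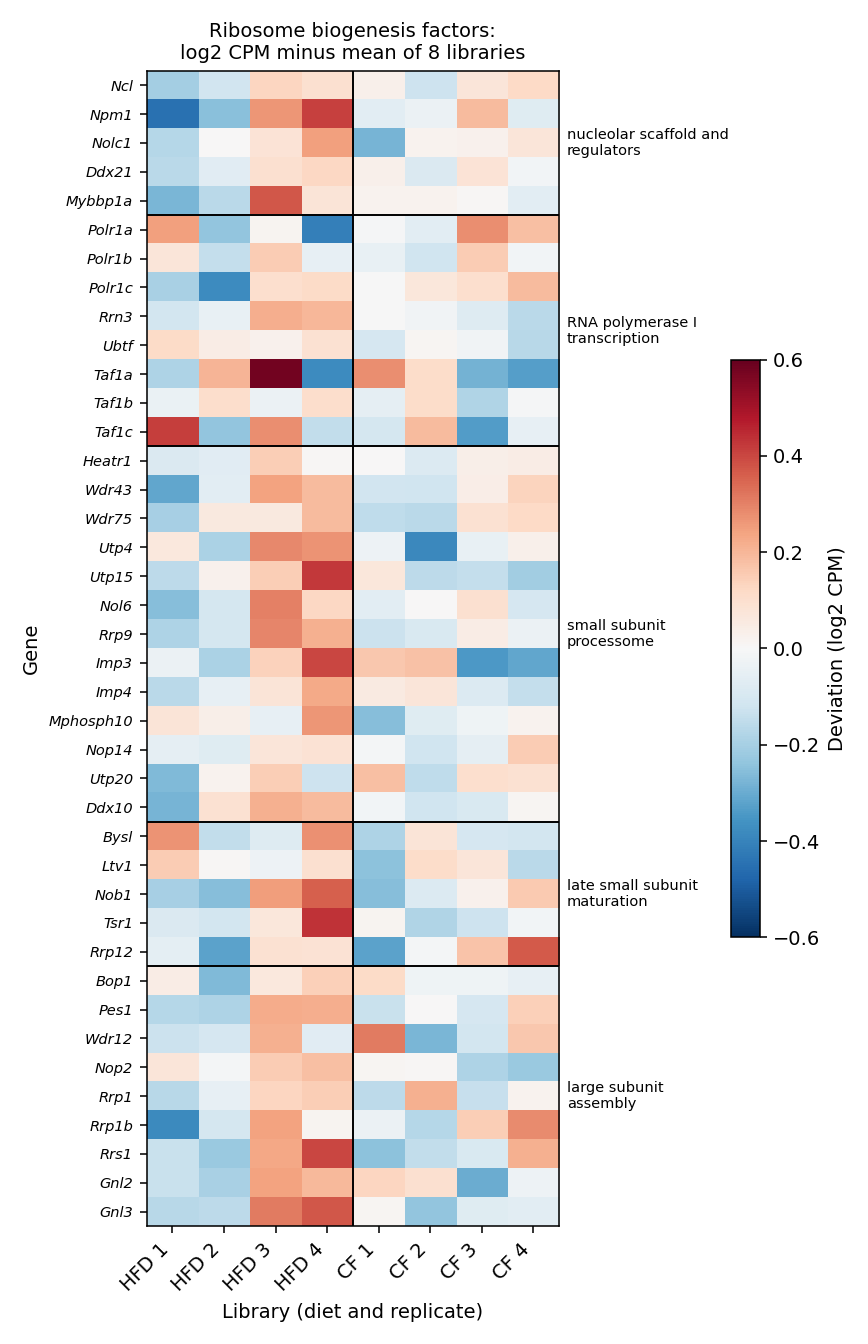
Colour gives the log2 CPM of each factor in each library minus its mean over the 8 libraries (red above, blue below, scale from -0.6 to 0.6), with genes grouped by role. HFD replicates 3 and 4 are mostly red and HFD replicates 1 and 2 mostly blue, while the CF libraries are mixed and Polr1a, Taf1a and Taf1c show other orders.

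The spread between replicates was larger in HFD than in CF for most factors, as it was for most genes. The median standard deviation of log2 CPM between replicates was 0.22 in HFD and 0.12 in CF for the factors. It was 0.28 and 0.20 for protein-coding genes, and 0.32 and 0.24 for all genes tested. The HFD value was the larger for 31 of the 40 factors (77.5%), beside 69.1% of protein-coding genes and 67.2% of all genes. Some factors did not share the common order. Polr1a was high in HFD replicate 1 and lowest in HFD replicate 4, Taf1c was highest in HFD replicate 1 with 6.55 CPM, and Ltv1 and Ubtf also had their highest value there, while Bysl reached 12.7 CPM in both HFD replicates 1 and 4. By role, the mean deviation from all 8 libraries in HFD replicates 1 to 4 was -0.25, -0.12, 0.19 and 0.19 for the scaffold proteins, -0.14, -0.047, 0.16 and 0.19 for the processome and -0.13, -0.14, 0.20 and 0.18 for the large subunit. In the remaining roles HFD replicate 1 was not below the mean, with 0.039, -0.086, 0.17 and -0.059 for RNA polymerase I transcription and 0.016, -0.17, 0.060 and 0.25 for late small subunit maturation.

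Other measures moved with these libraries. The neutrophil marker sum ranged from 940 to 20227 CPM in HFD, highest in replicate 1 and lowest in replicate 4, and from 1917 to 6488 CPM in CF, and each of the 12 markers was detected in every library. Of these markers, 0 were called by edgeR and 11 had a log2 fold change above 0, a number that was 0 without HFD replicate 1, with limma voom, with the linear model and with a replicate block. In CF, replicate 1 had 1917 CPM of these markers and a factor sum of 1393 CPM, and the factor sums of the other 3 ran from 1360 to 1463 CPM. Markers of other cells were read in the same way, and edgeR called 0 in each list. Of 9 erythroid markers, 9 had a log2FC above 0 with a median of 0.87, and they summed to 467, 111, 85.9 and 128 CPM in HFD replicates 1 to 4 and to 80.0 to 125 CPM in CF; without HFD replicate 1, 6 were above 0 and the median was 0.046. Of 9 B cell markers, 9 were above 0 (median 0.85, 6 at an unadjusted p below 0.05 beside 8.56% of all genes, and 1 called by DESeq2 beside 3.58%), with sums of 1306, 614, 658 and 467 CPM in HFD and 319 to 553 CPM in CF. The 7 granulocyte progenitor markers, 5 of them above 0, summed to 1205, 408, 259 and 219 CPM in HFD and 333 to 731 CPM in CF, and 0 of 7 were above 0 without HFD replicate 1. HFD replicate 1 thus had the highest sum of all 8 libraries in each of these lists. Of the plasmacytoid DC markers, 5 were tested and 5 were above 0 (median 1.40), with sums of 297, 700, 473 and 587 CPM in HFD and 387 to 432 CPM in CF. In that list 3 were called by DESeq2 (3.58% of all genes), 3 by edgeR without HFD replicate 1 (1.26%) and 1 with library size alone (0.682%). Of 7 conventional DC markers, 6 were below 0 (median -0.34), with sums of 176, 413, 519 and 482 CPM in HFD and 366 to 484 CPM in CF, and 1 was called without HFD replicate 1. HFD replicate 1 had the lowest sum of all 8 libraries in both DC lists. Each sum was mostly that of few genes, Runx2 (151 CPM in HFD replicate 1) and Tcf4 (101 CPM) in the plasmacytoid list and Flt3 (88.8 CPM) in the other. Single plasmacytoid markers of HFD replicate 1 differed from that order. Runx2 lay below every CF library, Tcf4 and Siglech (13.3 CPM) within the CF range, and Spib (27.1 CPM) and Ccr9 (5.13 CPM) above every CF library. Of 6 monocyte and macrophage markers, 4 were below 0 (median -0.19), with sums of 241 to 538 CPM in HFD and 428 to 601 CPM in CF. Their median was -0.018 with library size alone, 0.072 without HFD replicate 3, 0.030 without CF replicate 2 and, with 6 of 6 below 0, -0.43 without HFD replicate 1 and -0.46 with a replicate block, so no direction can be read from it. Of 7 T and NK cell markers 3 were tested (Cd4, Cd8a and Klrb1c), all above 0 (median 0.76), with Cd4 at a log2FC of 1.87 and an unadjusted p of 0.022 (edgeR, adjusted p = 0.41). With RLE factors 2 of the 3 were above 0. Every HFD library was above every CF library in the summed list, with sums of 4.14 to 4.83 CPM in HFD and 1.85 to 3.46 CPM in CF.

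The deviation of genes from their mean was related to exon length in HFD replicate 4 (Spearman's rho -0.29 over 11775 protein-coding genes, which share that library), against -0.033 in HFD replicate 3, 0.20 in HFD replicate 2 and -0.011 in HFD replicate 1. In CF replicates 1 to 4 the rho was 0.098, -0.20, 0.092 and 0.18. Over the 40 factors alone it was -0.11, 0.13, -0.038 and -0.31 in HFD replicates 1 to 4 and 0.24, -0.41, 0.34 and 0.16 in CF replicates 1 to 4, so that the value largest in size was that of CF replicate 2. The summed level of 18 cell cycle genes was 2903, 3129, 2704 and 2906 CPM in HFD replicates 1 to 4 and 2595 to 2901 CPM in CF, a sum of which Mki67 (mean 1099 CPM in HFD) and Top2a (537 CPM) made up the larger part. Mki67 was highest in HFD replicates 1 and 2 (1214 and 1292 CPM) and lower in replicates 3 and 4 (994 and 896 CPM). Of 7 genes of DNA replication in the list, Mcm6 (172, 198, 225 and 241 CPM in HFD replicates 1 to 4), Mcm7 (114, 126, 136 and 152 CPM), Pcna (108, 113, 115 and 150 CPM) and Mcm2 (95.1, 89.8, 98.6 and 114 CPM) had their highest HFD values in replicates 3 and 4. In Mcm3, Mcm4 and Mcm5 replicate 4 was the highest too, with 142, 138 and 140 CPM, and replicate 2 lay above replicate 3. The genes named here were chosen after their values were seen. Of the 18 cell cycle genes 0 were called by edgeR, with 0 at an unadjusted p below 0.05 and a median log2FC of 0.15. All 18 were above 0, beside 59.7% of all genes, and the number was 16 with protein-coding genes alone, 13 without HFD replicate 4 and 18 with library size alone. With library size alone 6 had an unadjusted p below 0.05 in edgeR, all higher, beside 9.92% of all genes on that side. That scaling moved the median of all genes to 0.25. The part of the marker lists, of length and of the cell cycle genes in the levels of the factors was not tested.

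**Figure D4:**
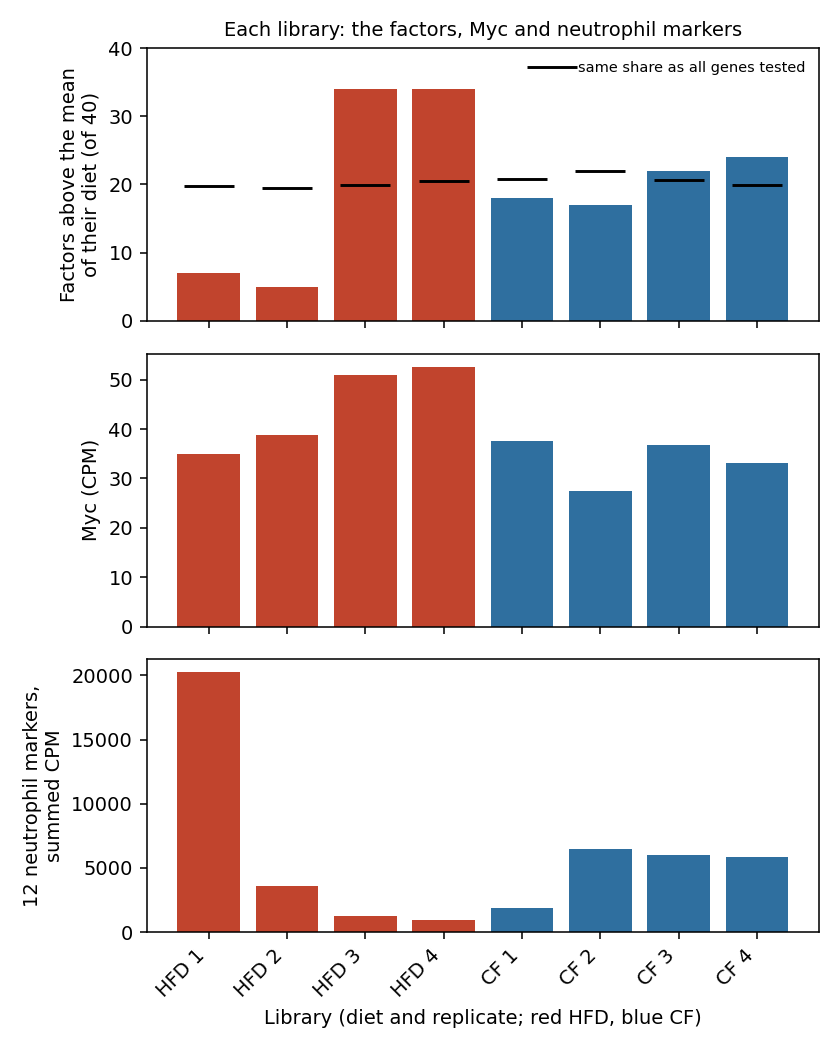
Bars give, for each library, the number of the 40 factors above the mean of their own diet (top; black lines mark where the share of all genes tested would fall), the level of Myc in CPM (middle) and the summed CPM of 12 neutrophil markers (bottom). HFD replicates 3 and 4 have 34 factors above the mean each and the highest Myc, and HFD replicate 1 has 7 factors above the mean and 20227 CPM of neutrophil markers.

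Myc was highest in HFD replicates 3 and 4, where 34 factors each lay above the mean of their diet. It had 34.9, 38.7, 51.0 and 52.6 CPM in HFD replicates 1 to 4 and 37.6, 27.4, 36.8 and 33.2 CPM in CF replicates 1 to 4, so that HFD replicates 2, 3 and 4 were above every CF library and replicate 1 was not. In CF, Myc was highest in replicate 1, whose factor sum (1393 CPM) was the third of 4. Its log2FC was 0.39 (SE 0.16), with an unadjusted p of 0.041 and an adjusted p of 0.54 in edgeR, and it was not called in any of 17 other settings, where its log2 fold change ranged from 0.26 to 0.59. Max, its partner on DNA, had a log2FC of -0.078. Of 10 genes of the Myc network tested (Myc, Mycn, Max, Mlx, Mnt, Mga, Mxd1, Mxd3, Mxd4 and Mxi1), 4 were above 0, 6 below and 0 were called. Over all genes tested, 59.7% were above 0. By edgeR 2 of the 10 (Myc and Mlx, the latter with a log2FC of -0.61) had an unadjusted p below 0.05, beside 8.56% of all genes. Scaled by library size alone, 9 of the 10 were above 0. The part of Myc in the levels of the factors was not tested.

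Promoters of the factors are shown because Myc with Max is known to bind the sequence CACGTG (an E-box), which reads the same on both strands. In the RefSeq promoter table for GRCm38.p6, which holds 250 bases before to 50 bases after each start, 34 of the 40 factors were matched. Rrs1, Nol6, Rrp12, Bop1, Gnl2 and Npm1 were not matched. The letters CACGTG stood in promoters of 10 of the 34 (29.4%), which were Imp4, Ltv1, Mybbp1a, Nop2, Pes1, Rrn3, Tsr1, Utp20, Utp4 and Wdr43. They stood in 8.09% of the 27025 genes of the table and in 11.9% of the 9778 genes of the table that were tested here. The median GC content of the factors' promoters was 58.3%, against 52.7% over all promoters, so the promoters differ in composition too. Stretches of 100 bases upstream of the start are given for the 3 factors with a match well ahead of the start, 5′ to 3′ on the plus strand of GRCm38.p6, which is the strand of all 3 genes, with CACGTG in capitals. They lie at chr6:125131776-125131875 (Nop2), chr1:34439661-34439760 (Imp4) and chr16:13780449-13780548 (Rrn3).
Nop2: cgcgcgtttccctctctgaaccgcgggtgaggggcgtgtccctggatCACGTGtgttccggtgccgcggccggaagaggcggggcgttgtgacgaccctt
Imp4: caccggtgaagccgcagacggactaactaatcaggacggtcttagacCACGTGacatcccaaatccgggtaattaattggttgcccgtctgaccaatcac
Rrn3: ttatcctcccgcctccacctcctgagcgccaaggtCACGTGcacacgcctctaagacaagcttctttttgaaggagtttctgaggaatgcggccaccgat

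In Nop2 the match begins 60 bases, in Imp4 121 bases and in Rrn3 215 bases ahead of the start, and the promoter of Rrn3 holds 2 copies. The 3 genes had log2 fold changes of 0.19, 0.053 and 0.14 between HFD and CF. Among the 10 factors with the letters, the log2 fold change ran from -0.11 (Utp20) to 0.22 (Utp4). A match describes the sequence and does not show that a factor binds there in CDPs.

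Inside the factors, 9 snoRNA genes showed another pattern than their hosts. SnoRNAs lie in introns of host genes, are released from the spliced intron and guide the modification of rRNA. SnoRNA genes of the count table lie on the own strand of 3 of the 40 factors, Ncl (Snora75, Snord82 and Gm24148), Wdr43 (Snord92, Snord53 and Gm22858) and Gnl3 (Snord69, Snord19 and Gm24916), while Snord91a and Gm22771, inside Tsr1, were not analysed here. All 9 had a log2 fold change below 0, between -3.05 and -0.54, and stayed below 0 in the 16 other settings that kept them. By edgeR 0 were called, with 6 at an unadjusted p below 0.05, beside 8.56% of all genes. DESeq2 called 5 of the 9 (Snora75, Snord92, Snord69, Snord19 and Gm24916), where it called 3.58% of all genes. Over the series, 304 of the 306 snoRNA genes tested were below 0 with a median of -1.37, and the median of the 9 was -1.46. Of the 306, 17 were called by edgeR, beside 0.423% of all genes.

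Snora75 in Ncl had 0.289, 1.10, 1.13 and 3.11 CPM in HFD replicates 1 to 4 and 20.4, 12.1, 7.97 and 6.55 CPM in CF replicates 1 to 4. The groups did not overlap, with a log2FC of -3.05 (SE 0.65; edgeR, adjusted p = 0.11), while Ncl itself stood at -0.044. Snord92 in Wdr43 had 0.706, 1.38, 1.55 and 1.63 CPM in HFD and 4.44, 4.29, 2.61 and 3.17 CPM in CF, again without overlap (log2FC -1.46, SE 0.31; adjusted p = 0.095). Snord69 in Gnl3 had 4.49, 11.4, 13.01 and 19.9 CPM in HFD and 67.7, 36.6, 39.96 and 21.8 CPM in CF, with the highest HFD library just below the lowest CF library (log2FC -1.76, SE 0.47; adjusted p = 0.18). Every HFD library was thus below every CF library for these 3, an order found in 3.58% of all genes tested. HFD replicate 1 was the lowest of 8 for each of the 3 and CF replicate 1 the highest. The share of counts in protein-coding genes was 41.4%, 41.91%, 39.74% and 38.91% in HFD replicates 1 to 4 and 28.32%, 34.14%, 33.9% and 42.03% in CF replicates 1 to 4, and its part in the snoRNA values was not tested. CF replicate 1 had the lowest share and the lowest TMM factor (0.7995), and CF replicate 4 had a share above every HFD library.

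The sequences of these 3 snoRNAs are printed from the GENCODE vM21 transcripts on GRCm38, as DNA letters 5′ to 3′ on the strand of the RNA, to show the letters by which their class is known. Snora75 lies at chr1:86351169-86351301 on the minus strand, Snord92 at chr17:71631281-71631365 on the plus strand and Snord69 at chr14:31014287-31014366 on the minus strand. Capitals mark ACA at 3 bases from the end of Snora75, and TGATGA (first match) and CTGA (last match) in both others.
Snora75: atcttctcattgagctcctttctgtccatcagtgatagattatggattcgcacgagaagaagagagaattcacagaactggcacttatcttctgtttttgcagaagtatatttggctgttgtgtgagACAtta
Snord92: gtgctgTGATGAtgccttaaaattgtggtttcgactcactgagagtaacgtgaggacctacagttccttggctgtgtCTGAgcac
Snord69: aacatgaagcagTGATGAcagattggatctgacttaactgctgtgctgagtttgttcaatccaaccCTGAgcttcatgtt

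TGATGA and CTGA are the C and D boxes of C/D snoRNAs, and ACA is the tail box of H/ACA snoRNAs. Searched on the RNA strand alone, TGATGA followed by CTGA stood in 66.7% of the 132 snoRNA genes of 60 to 100 bases that were tested, and ACA at that place in 71.5% of the 144 of 110 to 160 bases.

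The summed snoRNAs of each host had lower means in HFD, while the hosts had log2FC of -0.044 (Ncl), 0.041 (Wdr43) and 0.20 (Gnl3). In Ncl they summed to 18.8, 35.6, 37.5 and 44.2 CPM in HFD and 85.7, 59.1, 56.5 and 37.7 CPM in CF, or 11.4% of the host's mean CPM in HFD and 19.5% in CF. In Wdr43 they summed to 11.8, 32.8, 22.9 and 25.9 CPM in HFD and 57.8, 52.8, 35.8 and 23.4 CPM in CF (58.0% and 108% of the host). The largest gap was in Gnl3, with 8.02, 25.6, 28.4 and 41.3 CPM in HFD and 120, 78.4, 82.5 and 40.7 CPM in CF (89.8% and 321% of the host). In each host the ranges of the sums overlapped, since CF replicate 4 lay within the HFD range. Snora75 and the 3 snoRNAs of Gnl3 also lie in exons of retained-intron transcripts of their hosts, so reads from host and snoRNA could be split between them in ways that the table does not show.

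**Figure D5:**
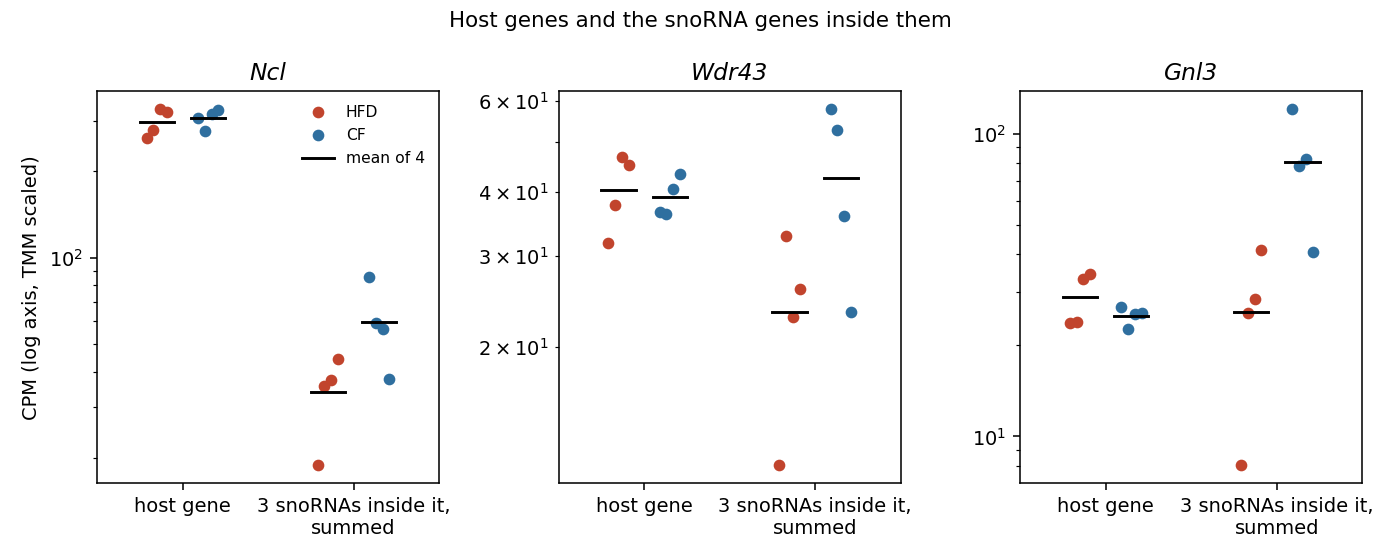
For Ncl, Wdr43 and Gnl3, points give the CPM (log axis, TMM scaled, a separate scale in each panel) of the host gene and of the sum of its 3 snoRNAs in each library (HFD red, CF blue), with bars at the mean of 4. The host values of both diets overlap, and the means of the snoRNA sums lie lower in HFD, with CF replicate 4 inside the HFD range.

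Some factors overlap a gene on the other strand, and the sources used here do not state whether reads were counted by strand. Bysl shares 361 exonic bases with Ccnd3, which encodes cyclin D3 and had 120, 78.2, 33.2 and 32.4 CPM in HFD and 26.6 to 34.3 CPM in CF. Bysl had 12.7, 9.50, 10.0 and 12.7 CPM in the same HFD libraries, and the part of Ccnd3 reads in its counts was not tested. Tsr1 shares 1240 exonic bases with Srr (log2FC 0.58; edgeR, adjusted p = 0.75). Mybbp1a shares 131 bases with Spns2, Heatr1 155 with Lgals8, Bop1 50 with Mroh1, Wdr12 61 with Carf, Rrp9 20 with Parp3 and Gnl3 15 with Pbrm1. Polr1a shares 185 bases with the antisense gene Gm26628 (0.84 CPM in HFD and 0.95 CPM in CF). A further 7 factors share exonic bases with a gene that was not analysed here, Taf1c 584 with Dnaaf1, Imp4 209 with Gm28306, Nop14 144 with Gm15522, Pes1 138 with 4930556J24Rik, Wdr43 60 with CT010429.2, Rrp1b 54 with Hsf2bp and Gnl2 43 with Dnali1. Counts of all these factors are uncertain to that extent.

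The rest of the pathway was read in a list of 105 other factors chosen by role, of which 104 were tested. Of these, 73 had a log2 fold change above 0, 31 below and 0 were called by edgeR, with a median of 0.083. Over protein-coding genes, 64.6% were above 0 and the median was 0.070. In the list 1 (Ngdn) had an unadjusted p below 0.05 in edgeR, beside 8.56% of all genes and 5.38% of protein-coding genes. Without HFD replicate 4 the median was -0.022, with 50 above 0, and with library size alone it was 0.27, with 102 above 0. By role, the medians were 0.062 for 8 factors of RNA polymerase I transcription, 0.082 for 31 of the processome, 0.15 for 5 of late small subunit maturation, 0.074 for 45 of the large subunit and 0.12 for 15 that trim rRNA. Ngdn, a processome protein, had 9.92, 10.1, 8.92 and 10.4 CPM in HFD and 7.55, 7.73, 8.94 and 6.26 CPM in CF, with a log2FC of 0.37 (SE 0.14; adjusted p = 0.44). The values of HFD replicate 3 and CF replicate 3 met, and the other libraries lay apart by diet. Next by p on this side were Twistnb, a subunit of RNA polymerase I (0.28, adjusted p = 0.61), and the helicase Ddx55 (0.32, adjusted p = 0.66). On the other side the lowest p were those of the processome protein Krr1 (-0.19, adjusted p = 0.74), the TATA-binding protein Tbp (-0.14, adjusted p = 0.82) and the large subunit factor Nop16 (-0.19, adjusted p = 0.83). With library size alone Krr1 moved to -0.012, Nop16 to -0.013 and Tbp to 0.073, so no direction can be read from these 3. Every HFD library was above every CF library for 3 of the 104 (Twistnb, Mrto4 and Nol8) and below for 0, beside 2.58% and 3.58% of all genes.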

How the data were processed

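RNA of sorted CDPs was sequenced in 8 libraries, 4 per diet. The deposited table holds raw counts per gene. According to the study's methods, the authors aligned reads with HISAT2, kept uniquely mapped pairs and counted them with StringTie on GENCODE genes, after NuGEN depletion of unwanted transcripts, and the submitters' notes add FastQC, cutadapt and GRCm38. Its normalization, release and strand setting are not given in the sources used here, and no gene had a highest count under 29. Genes were matched by identifier to GENCODE vM21 (16067 found, 52 not).

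The test was that of edgeR 4.0.16 in R 4.3.3 (filterByExpr, TMM, robust quasi-likelihood test, diet as the only term), with Benjamini-Hochberg adjustment over the 15837 genes tested and a threshold of 0.05. Log2 CPM used a prior count of 2. Alternatives were library size alone, RLE factors, limma voom 3.58.1, DESeq2 1.42.0, a linear model on log2(CPM + 1), no filter, 1 CPM in 4 libraries, protein-coding genes alone, a block for the replicate number, and a fit without each single library. The test was tried on simulated data. Python 3.11.15 with matplotlib 3.10.9 drew the figures.

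The factors and lists were chosen with earlier results of these data known. Values in every library are given for the 10 factors with the lowest p and the highest per length in each role, and of the other factors 3 are named per direction. Ncl, Myc, the snoRNAs with sequences and the overlapping genes were chosen for naming with their values known. The methods call the replicates independent and prepared in parallel, but the labels tie no library to an animal. The p-values thus set the diet difference against the spread between these libraries, which may not be that between animals.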

Additional observations from a re-analysis of the deposited data

Results flagged for a closer look

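Of 80 groups of 4 libraries (40 factors in 2 diets), 4 had a library far from the other 3 of its diet on the log2 CPM scale by Dixon's ratio. Chance gives about 1 in 20 groups where groups are independent. The 80 groups share the same libraries, so this rate is a rough guide and no verdict on chance is drawn. Npm1 was highest in CF replicate 3, with 8.039 against 7.776 to 7.813 in the other CF libraries. Nolc1 was lowest in CF replicate 1, with 5.281 against 5.584 to 5.634. Bop1 was highest in CF replicate 1, with 4.11 against 3.946 to 3.97. Wdr12 was highest in HFD replicate 3, with 4.649 against 4.307 to 4.365. No cause of these was tested.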

How the results depend on the processing

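None of the 40 factors and none of the 104 other factors of the pathway was called in any of 17 alternatives, in which the lowest adjusted p was 0.32 among the 40 and 0.11 among the 104 (both edgeR, without HFD replicate 1). The median of the factors moved past the spread between replicates only with library size alone, to 0.26 beside 0.25 over all genes, and ran from -0.030 to 0.12 with single libraries left out. Of 680 values of single factors, 78 changed sign, 49 of them with a library left out, and most belong to factors whose fold change is below its standard error, from which no direction is read. Polr1c became 0.018 and Polr1a -0.0011 with library size alone. Tsr1 became -0.0086 without HFD replicate 4 and 0.23 without HFD replicate 2, and its highest value over all settings was 0.36. The number of all genes called, 67 in edgeR with TMM, was 108 with library size alone (98 lower and 10 higher), 567 with DESeq2 (503 and 64), and 0 in 2 further fits, by a linear model for each gene (809 lower, 648 higher by unadjusted p below 0.05) or on protein-coding genes (252 and 285). With libraries left out it ran from 0 (HFD replicate 3, CF replicates 1, 2 or 3) to 200 (HFD replicate 1), with 1 without HFD replicate 2, 2 without HFD replicate 4 and 154 without CF replicate 4. The replicate block gave 0 calls (675 and 236), and same-numbered libraries did not deviate together (correlations from -0.439 to -0.0779, with 0 of 8 libraries closest to their own number), so the numbers were not read as pairs. The causes of these differences were not tested. The interval of a factor gives the differences that 4 libraries per diet leave possible, not the size that the test would call, and it was widest for Taf1a, the factor with the fewest counts.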
